A study of Sus scrofa with 12 samples.

Results

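The genes described here mark macrophages and the wider myeloid lineage. The 41 symbols were listed for what their products do, when earlier results of these data had been seen. Of these, 38 were paired with an identifier among the 35682 genes of the count files, and 36 were among the 13844 genes that passed the filter on low counts. MARCO and TIMD4 were paired but fell under the filter, and ADGRE1, CSF2RA and ITGAX were not paired with an identifier and were not analysed here.

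RNA sequencing measured heart tissue of 6 pigs, each with 1 border zone library and 1 remote zone library, so that each region had 6 libraries of separate animals. The animals were female Yorkshire pigs of 10 to 12 weeks, and all had 60 min of balloon occlusion of the left anterior descending coronary artery followed by reperfusion. From day 9 all were immunosuppressed, with daily doses of 0.75 mg/kg for tacrolimus, 500 mg for mycophenolate mofetil and 20 mg for prednisolone. On day 14 either vascular organoids held by fibrin glue or the glue alone were laid on the heart. Tissue was taken 28 days after that. The organoids were made of human endothelial progenitor cells and of smooth muscle cells derived from human mesenchymal stem cells. The border zone was the tissue beside the infarct and the remote zone came from the posterior wall. The sample labels do not say which animal had which treatment, so each region holds animals of unstated treatment. Organoid against control, which the paper compared in the border zone, was not compared here. Both regions come from injured, drug-treated hearts, no uninjured heart is among the libraries, and reads were aligned to the pig genome alone although some hearts carried human cells.

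Macrophages live in the healthy heart and are joined after an infarct by cells that arise from blood monocytes. They clear dead cells through scavenger and Fc receptors, sense damage through Toll-like receptors and kill engulfed microbes with an oxidase. Survival of the lineage depends on the receptor CSF1R, and its identity on the transcription factor PU.1, the product of SPI1. Several genes of the list are shared with other leukocytes, such as PTPRC (CD45), ITGB2 and CORO1A, and in bulk tissue more cells of a type cannot be told apart from more RNA per cell.

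PU.1 binds a purine-rich core, so the region from 250 bases before to 50 bases after each RefSeq start was searched for GAGGAAG on either strand. These letters hold the GGAA core that PU.1 shares with other ETS factors. They stood in 11 of the 39 member promoters that could be read (28.2%), those of the 38 matched members and of ADGRE1, and in 2389 of 19545 promoters of the genome (12.2%). The windows below were chosen to show the match in 3 members with a higher border zone level in every animal (NCF1, ITGB2, EVI2B) and in the 2 members with the smallest fold changes (SPI1, FCGR1A). Each is 80 bases of Sscrofa11.1, written 5′ to 3′ on the strand of the gene, with the match in capitals. All read as the opposite-strand form of the motif.
NCF1: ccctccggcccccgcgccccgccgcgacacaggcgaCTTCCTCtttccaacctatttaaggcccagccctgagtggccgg
ITGB2: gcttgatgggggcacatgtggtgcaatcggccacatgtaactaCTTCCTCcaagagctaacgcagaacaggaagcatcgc
EVI2B: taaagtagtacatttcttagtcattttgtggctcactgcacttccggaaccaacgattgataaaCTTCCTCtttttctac
SPI1: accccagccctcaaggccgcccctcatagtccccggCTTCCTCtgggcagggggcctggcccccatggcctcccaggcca
FCGR1A: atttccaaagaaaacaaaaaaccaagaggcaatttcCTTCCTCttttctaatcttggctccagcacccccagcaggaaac

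The NCF1 window is chr3:11820257-11820336 on the plus strand, and its match starts 74 bases before the start of the gene. The ITGB2 window is chr13:207544109-207544188 on the minus strand, with the match 37 bases before the start. For EVI2B it is chr12:43553811-43553890 (plus strand, match 16 bases before the start). For SPI1 it is chr2:15227667-15227746 (plus strand, 147 bases), and for FCGR1A chr4:99242586-99242665 (minus strand, 98 bases). NCF1 has 2 matches before its start and SPI1 has 3, and the match nearest the start is shown. A match is a description of the letters and not a measured binding site. The 11 tested members with the letters had log2 fold changes of 0.21 to 2.20 with a median of 1.45, and the 25 without them had a median of 1.73, from 0.34 to 4.0. The C/EBP letters TTGCNNAA stood in 7 of the 39 promoters (17.9%, against 9.43% of all), and the AP-1 letters TGANTCA stood in 2 (5.13%, against 6.04%).

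Libraries held 15130210 to 30526110 counts in border zone libraries and 20091415 to 31618680 in those of the remote zone. The border zone library of animal 3622 had the smallest total and listed 28024 genes, where no other library listed more than 20148. The border zone library of animal 1022 stood apart in its tissue markers: cardiomyocyte genes summed to 8028 CPM (counts per 1000000) there and to no less than 28998 in any other library. Mitochondrial transcripts took 5.69% to 17.3% of counts in border zone libraries and 13.6% to 33.5% in the remote zone. Levels below are CPM scaled by TMM factors, and fold changes are border zone over remote zone. Tests are quasi-likelihood F tests of edgeR, adjusted by Benjamini-Hochberg over all 13844 genes with a threshold of 0.05. They weigh the difference between regions against the spread between libraries within a region. Except where a block is named, they do not pair the libraries of an animal.

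All 36 members tested had a higher fitted level in the border zone, a direction held by 53.3% of all genes tested. Their median log2 fold change was 1.67, which is 3.18-fold, beside 0.04 for all genes, and single values ran from 0.21 (SPI1) to 4.0 (CD84). None of the 36 passed edgeR's adjusted threshold, which 2.06% of all genes passed in that direction. Adjusted p-values ran from 0.0582 (NCF1) to 0.726 (FCGR1A), and 16 members were under 0.10. At an unadjusted p under 0.05, 31 of 36 members were higher in the border zone, against 17.0% of all genes. These shares describe a list chosen with earlier results of the same data known, and the list as a whole was not tested. DESeq2's Wald test put 19 of the 34 members to which it gave an adjusted p past the threshold, against 8.42% of all genes. It gave none to CSF1R and SIGLEC1. Scaling to library totals in place of TMM put 21 of 36 members past edgeR's threshold, against 11.2% of all genes, and moved the median of all genes to 0.32 and that of the members to 2.08.

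**Figure D1:**
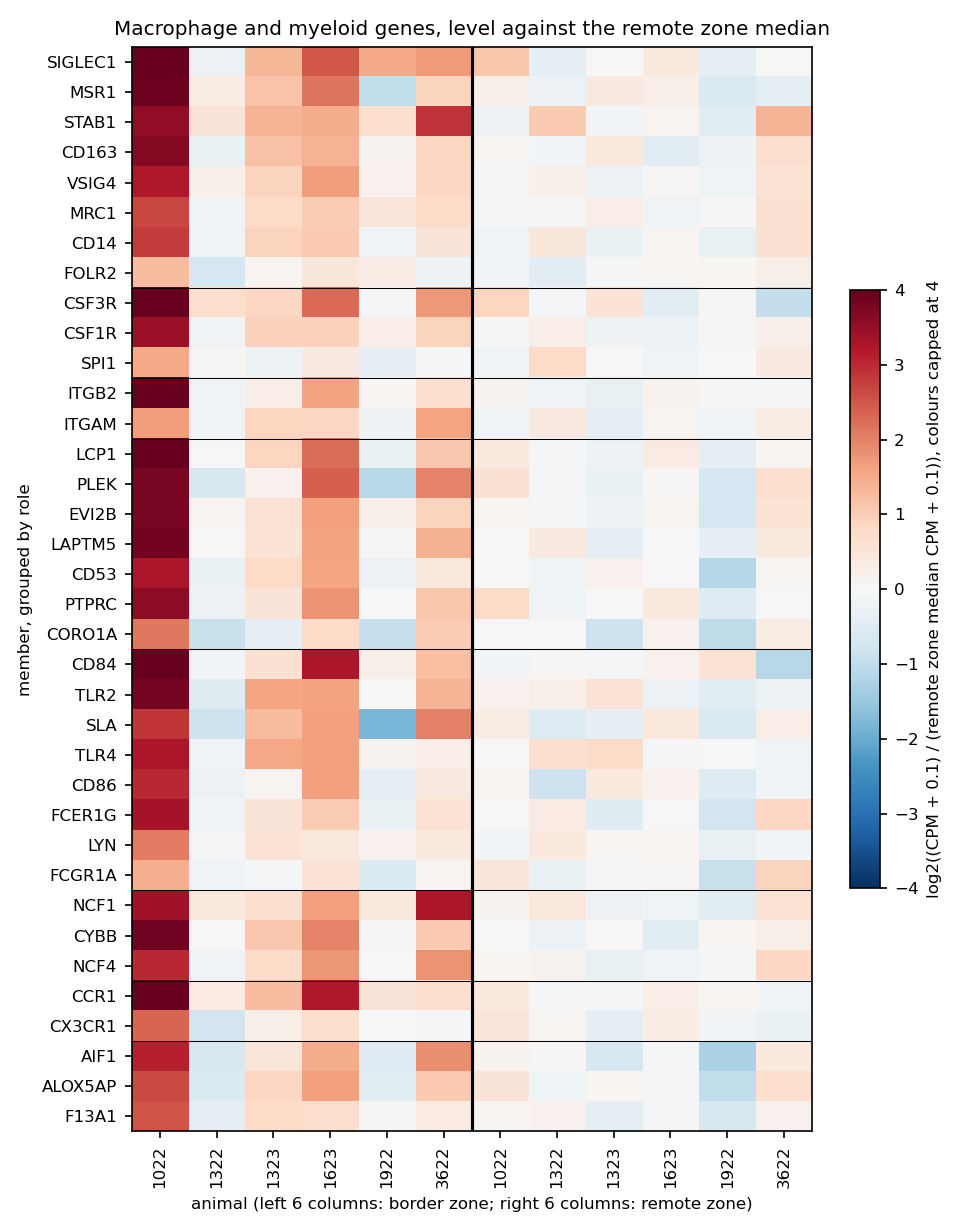
Level of the 36 tested members (lines of the grid, grouped by role) in the 12 libraries, as log2 of CPM + 0.1 over the remote zone median + 0.1, with red above and blue below that median and colours capped at 4. The border zone library of animal 1022, the first column, holds the highest value for every member, and the 6 remote zone columns on the right are pale.

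The animals differed widely beside the infarct, and whether this goes with their treatment could not be tested. The border zone library of animal 1022 was the highest of all 12 libraries for 36 of 36 members, a place it took for 29.9% of all genes tested. It held 27.5% (ITGAM) to 82.6% (CD84) of the CPM that the 6 border zone libraries summed to, with a median of 52.8%. Among the border zone libraries, that of animal 1623 came second for 26 of 36 members, against 21.5% of all genes. That of 3622 came second for 7 members (18.0% of all genes) and that of 1323 for 3 (16.8%). At the other end, animal 1322 was the lowest of the 6 for 23 members (21.0% of all genes).

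Set against the highest remote zone library, the border zone library of animal 1022 was above it for 36 of 36 members, where 36.2% of all genes tested were. That of 1623 was above it for 34 members (20.8% of all genes), that of 3622 for 27 (27.1%) and that of 1323 for 24 (23.7%). The libraries of animals 1922 and 1322 were above it for 3 members (16.1% of all genes) and 0 members (9.9%). The regions therefore overlapped for every member, with 4 of the 6 border zone libraries above the remote zone for most members and 2 not above it for most. The remote zone was tighter. The highest remote zone library exceeded the lowest by a median of 2.14-fold over the members, while the border zone spanned 12.1-fold, and 3.78-fold without animal 1022.

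**Figure D2:**
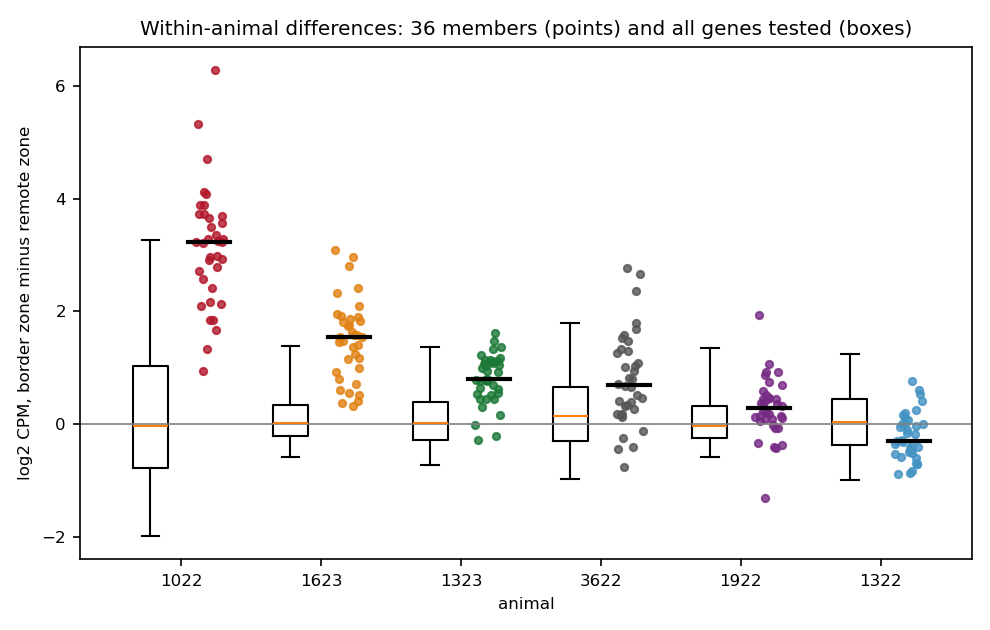
Border zone minus remote zone log2 CPM within each animal, for the 36 tested members (points, with a black bar at their median) and all genes tested (boxes, quartiles and median, with whiskers at the 5th and 95th percentiles). Medians of the members range from 3.23 in animal 1022 to -0.30 in animal 1322, while the medians of all genes stay between -0.04 and 0.14.

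Within animals, all 36 members were higher in the border zone of animal 1022, by a median of 9.40-fold, from 0.94 (FCGR1A) to 6.28 (CD84) on the log2 scale. In animal 1623 all 36 were higher as well, by a median of 2.91-fold. Animals 1323 and 3622 had 33 and 31 members higher, with median log2 differences of 0.79 and 0.70. Animal 1922 had 28 higher with a median of 0.28, and animal 1322 had 12 higher with a median of -0.30. The share of all genes that were higher in the border zone lay between 46.7% and 58.7% in each animal. SIGLEC1, VSIG4, ITGB2, EVI2B, LCP1, NCF1 and CCR1, 7 of 36 members, had a higher border zone level in all 6 animals, as had 11.7% of all genes, and 27 members in 5 or 6, against 28.8% of all genes.

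With both libraries of animal 1022 left out, the median of the members was 0.79, from -0.25 (SPI1) to 1.75 (CCR1), and 2 members lay below 0. None passed the adjusted threshold, which 1.14% of all genes did with a higher border zone, and 17 of 36 had an unadjusted p under 0.05 with a higher border zone, against 10.1% of all genes. With the animal as a block, which pairs the libraries of each heart, the median was 1.08, 0 members passed (0.289% of all genes), and 20 of 36 had an unadjusted p under 0.05, against 17.0% of all genes. The block without animal 1022 gave a median of 0.69 and put 1 of 36 members, SIGLEC1, past the threshold with a higher border zone, against 4.11% of all genes. Without animal 1322, 1 of 36, NCF1, passed, against 3.64% of all genes. Neither share of the members was above that of all genes.

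**Figure D3:**
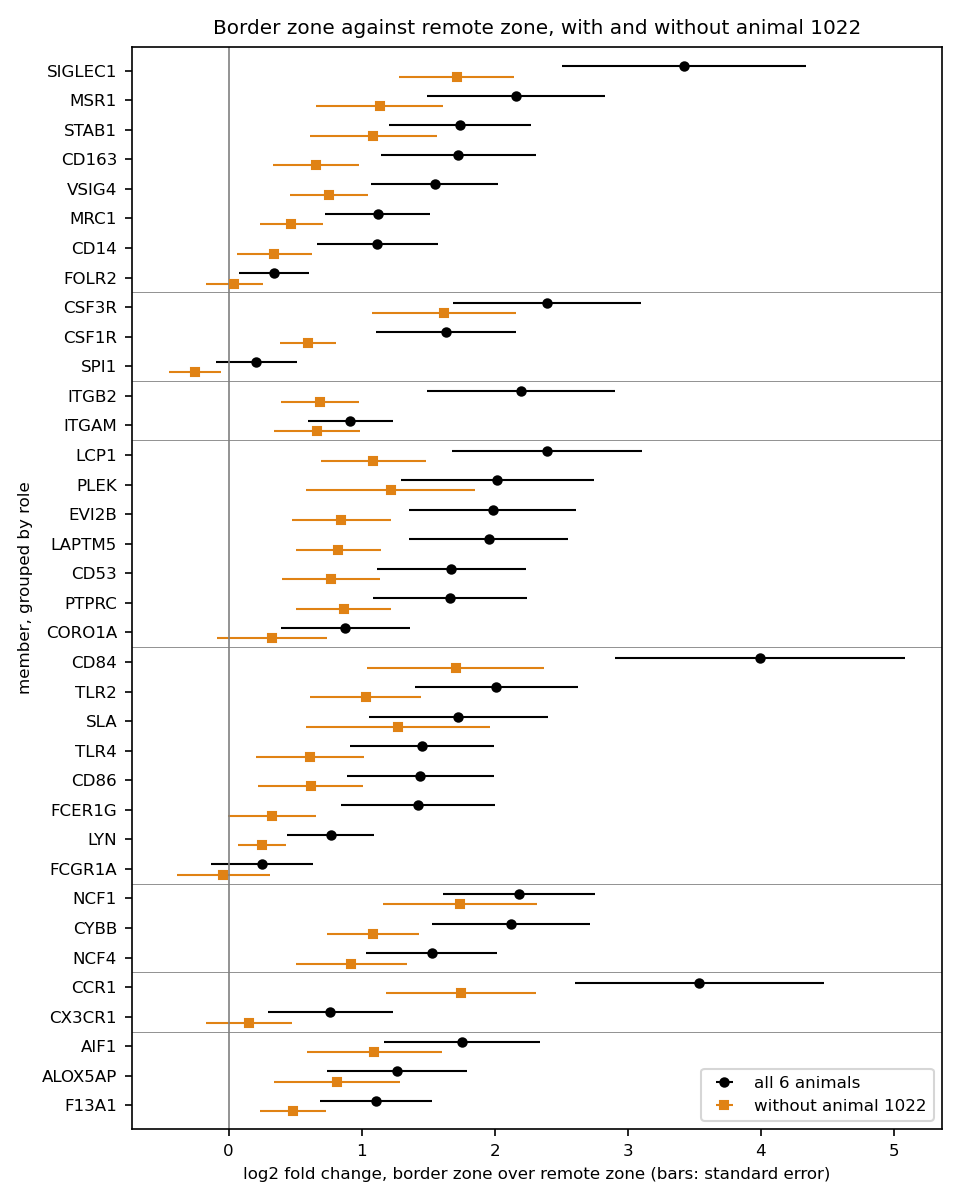
Log2 fold change of each tested member, border zone over remote zone, with its standard error, from all 6 animals (black circles) and without animal 1022 (orange squares), grouped by role. All black circles lie above 0, from 0.21 to 4.0, and the orange squares run from -0.25 to 1.75.

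Scavenger and phagocytic receptors made up 11 of the listed genes, of which 8 were tested. Their median log2 fold change was 1.64 (0.71 without animal 1022). An unadjusted p under 0.05 was found for 7 (17.0% of all genes), and none passed edgeR's adjusted threshold (2.06% of all genes). DESeq2 put 4 past the threshold (8.42% of all genes) and gave SIGLEC1 no adjusted p. STAB1, a clearance receptor for modified lipoproteins and matrix fragments, had a level of 15.1 to 125 CPM (median 28.8) in the border zone and 8.01 to 27.7 (median 10.7) in the remote zone. Its log2 fold change was 1.74 (SE 0.53, edgeR adjusted p = 0.0866), or 1.09 without animal 1022. The regions overlapped, with 3 border zone libraries above the remote zone, and the library of animal 3622, at 80.1 CPM, was second to that of 1022. The gene overlaps NT5DC2 on the other strand, and the libraries do not keep strand.

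SIGLEC1 (CD169), a sialic acid receptor of tissue macrophages, was at 0.925 to 67.1 CPM (median 3.62) in the border zone and at 0.824 to 2.49 (median 1.11) in the remote zone. Its log2 fold change was 3.42 (SE 0.92, edgeR adjusted p = 0.0619), and 1.71 (SE 0.43, edgeR adjusted p = 0.089) without animal 1022. The border zone was higher in all 6 animals, and 5 border zone libraries lay above every remote zone library. MSR1, the class A scavenger receptor, ranged from 0.825 to 27.8 CPM (median 3.64) beside the infarct and from 1.14 to 2.27 (median 1.74) in the posterior wall, a log2 fold change of 2.16 (SE 0.67, edgeR adjusted p = 0.088), or 1.14 without animal 1022. Animal 1922 had the lowest border zone value, under all 6 remote zone libraries.

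FOLR2, a folate receptor carried by resident macrophages, had the smallest fold change of the group. It stood at 12.2 to 47.2 CPM (median 23.0) in the border zone and 14.9 to 23.7 (median 20.1) in the remote zone, a log2 fold change of 0.34 (SE 0.26, edgeR adjusted p = 0.44). Without animal 1022 this was 0.04 (SE 0.21). The hemoglobin scavenger CD163, the mannose receptor MRC1, the endotoxin co-receptor CD14 and the complement receptor VSIG4 had log2 fold changes of 1.12 (CD14) to 1.73 (CD163), and edgeR's adjusted p-values were 0.0869 (VSIG4) to 0.157 (CD14). Without animal 1022 the fold changes were 0.34 (CD14) to 0.76 (VSIG4).

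MARCO and TIMD4, receptors of particular macrophage subsets, had few counts. MARCO had 10 counts in the 12 libraries together, 6 from the border zone and 4 from the remote zone. TIMD4, which binds phosphatidylserine on dying cells, had 100 counts in the border zone, 65 of them from animal 1022, and 33 in the remote zone. On the log2(CPM + 0.1) scale the mean within-animal difference of TIMD4 was 0.72, higher in 4 of 6 animals (two-sided exact permutation test, p = 0.219, where the smallest that 6 animals allow is 0.031), and it was 0.24 without animal 1022. MARCO had 0 counts in both libraries of 4 of the 6 animals, so no test of it could pass, and none is given.

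**Figure D4:**
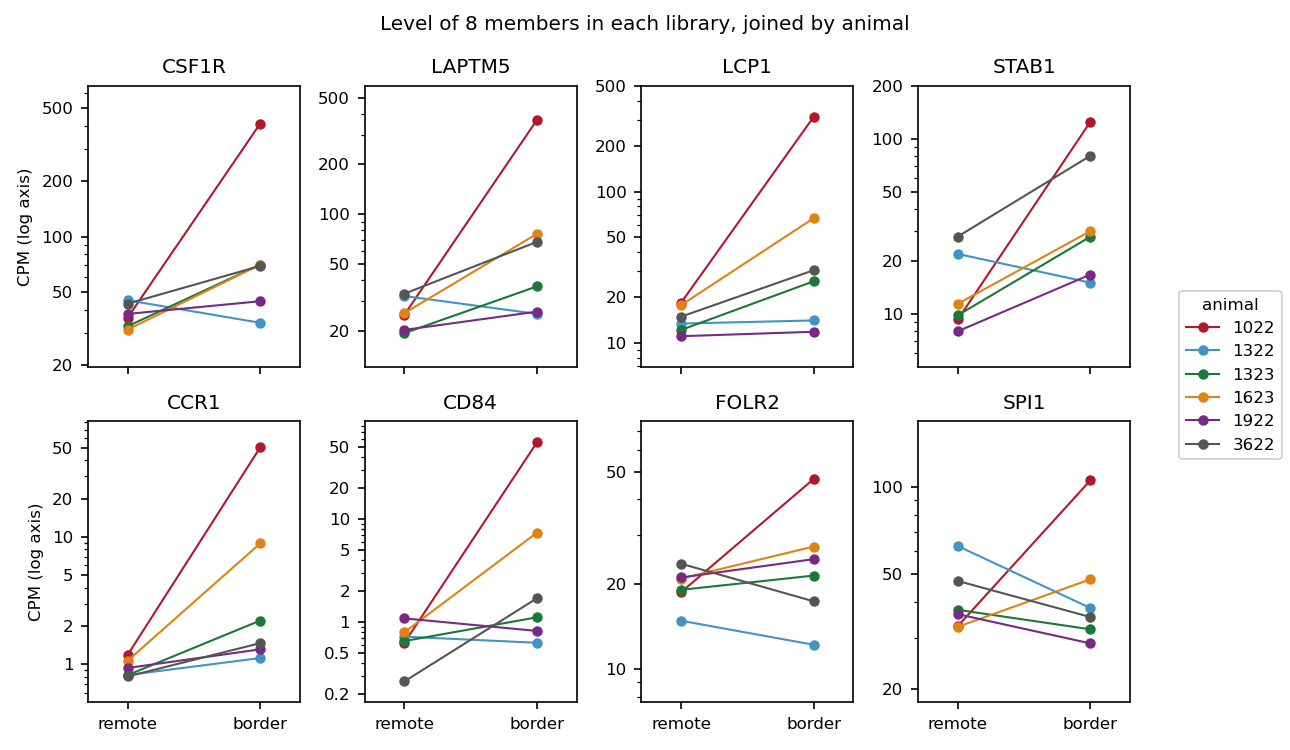
CPM of 8 members on log axes in the remote and border zone library of each animal, joined by a line per animal. CSF1R, LAPTM5, LCP1 and CCR1 climb most steeply in animals 1022 and 1623, while the lines of SPI1 slope down in 4 of 6 animals.

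The receptor that sustains the lineage and the factor that defines it had unlike values, although the difference between the genes was not tested. CSF1R, the receptor for CSF1 and IL34, ranged from 33.9 to 412 CPM (median 69.8) in the border zone and from 31.2 to 45.0 (median 37.1) in the remote zone. Its log2 fold change was 1.63 (SE 0.53, edgeR adjusted p = 0.0969), and 0.60 (SE 0.21, edgeR adjusted p = 0.191) without animal 1022. Besides animal 1022, the border zone libraries of 1323, 1623 and 3622 were at 69.2 to 70.4 CPM, and those of 1922 and 1322 were at 44.5 and 33.9, within the remote zone range.

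SPI1 ranged from 28.8 to 106 CPM (median 36.9) in the border zone and from 32.9 to 62.6 (median 37.0) in the remote zone. The medians of the regions were close, only the library of animal 1022 lay above the remote zone, and the border zone was higher in 2 of 6 animals. The log2 fold change was 0.21 (SE 0.30, edgeR adjusted p = 0.709), and -0.25 (SE 0.20, edgeR adjusted p = 0.57) without animal 1022. SPI1 lies at chr2:15227850-15245679 on the plus strand. The next gene on that strand, MYBPC3, starts at 15247679, which is 2000 bases beyond the end of SPI1, and encodes a sarcomere protein of cardiomyocytes. MYBPC3 was at 979 to 5022 CPM in the border zone against 4185 to 6120 in the remote zone, its log2 fold change was -0.51 (SE 0.32, edgeR adjusted p = 0.331), and its part in the counts of SPI1 was not tested. CSF3R, the granulocyte growth factor receptor, was low, at 0.340 to 7.40 CPM (median 1.06) against 0.134 to 0.713 (median 0.351), with a log2 fold change of 2.39 (SE 0.71, edgeR adjusted p = 0.081), or 1.62 without animal 1022.

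The leukocyte integrin chains ITGB2 (CD18) and ITGAM (CD11b) pair to form the complement receptor Mac-1, which holds myeloid cells to vessel walls. ITGB2 was at 8.91 to 192 CPM (median 13.6) in the border zone and 8.10 to 11.0 (median 9.94) in the remote zone, with a log2 fold change of 2.20 (SE 0.71, edgeR adjusted p = 0.0953). It was higher beside the infarct in all 6 animals, and animal 1022 held 71.4% of the border zone CPM. ITGAM was at 5.10 to 18.7 CPM (median 10.6) against 4.58 to 7.56 (median 5.84), a log2 fold change of 0.92 (SE 0.32, edgeR adjusted p = 0.115). Its border zone values in animals 1022 and 3622 were near each other, at 18.7 and 17.8 CPM. Without animal 1022 the chains were at 0.68 and 0.66 on the log2 scale.

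The 7 membrane and cytoskeleton genes shared by leukocytes had log2 fold changes with a median of 1.95 (0.85 without animal 1022). Of these, 6 had an unadjusted p under 0.05 (17.0% of all genes) and 6 passed in DESeq2 (8.42% of all genes). LAPTM5, a lysosomal protein of blood cells, was at 25.2 to 369 CPM (median 52.5) in the border zone and 19.3 to 33.3 (median 25.2) in the remote zone, a log2 fold change of 1.95 (SE 0.60, edgeR adjusted p = 0.0866), or 0.82 without animal 1022. LCP1, the actin bundler L-plastin, was at 11.8 to 313 CPM (median 27.9) against 11.07 to 18.4 (median 14.2), a log2 fold change of 2.39 (SE 0.71, edgeR adjusted p = 0.0813), or 1.09 without animal 1022, and was higher in all 6 animals. For both genes 4 border zone libraries were above the remote zone and those of animals 1322 and 1922 were within it.

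PLEK, pleckstrin, a substrate of protein kinase C, was at 0.680 to 23.3 CPM (median 4.12) in the border zone and 0.936 to 2.54 (median 1.57) in the remote zone. Its log2 fold change was 2.02 (SE 0.73, edgeR adjusted p = 0.123), or 1.22 without animal 1022, and 3 border zone libraries, those of 1022, 1623 and 3622, lay above the remote zone. The phosphatase PTPRC (CD45), the tetraspanin CD53 and the surface protein EVI2B had log2 fold changes of 1.66 to 1.99, or 0.77 to 0.87 without animal 1022. The actin regulator CORO1A was the lowest of the group at 0.88 (SE 0.48, edgeR adjusted p = 0.275), or 0.33 without animal 1022. EVI2B overlaps NF1 on the opposite strand.

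Among the 8 genes of Fc receptor, Toll-like receptor and co-stimulation signaling, 7 had an unadjusted p under 0.05 (17.0% of all genes). In DESeq2 2 passed (8.42% of all genes), and the median log2 fold change was 1.45 (0.61 without animal 1022). CD84, a SLAM family receptor, had the largest value of all members. It was at 0.633 to 55.7 CPM (median 1.42) in the border zone and 0.267 to 1.09 (median 0.693) in the remote zone, a log2 fold change of 4.0 (SE 1.09, edgeR adjusted p = 0.0646). The library of animal 1022 held 82.6% of the border zone CPM and the border zone was higher in 4 of 6 animals. The value was 1.71 (SE 0.67, edgeR adjusted p = 0.221) without animal 1022.

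TLR2, the sensor of bacterial lipoproteins and of damage products, was at 1.41 to 29.8 CPM (median 5.79) beside the infarct and 1.46 to 3.06 (median 2.02) in the remote zone, with a log2 fold change of 2.01 (SE 0.61, edgeR adjusted p = 0.0861), or 1.03 without animal 1022. FCER1G, the signaling chain shared by Fc receptors, was at 4.37 to 54.4 CPM (median 7.89) against 3.17 to 9.56 (median 5.32), a log2 fold change of 1.42 (SE 0.58, edgeR adjusted p = 0.157), or 0.33 without animal 1022. Only 2 border zone libraries of FCER1G, those of 1022 and 1623, lay above the remote zone. LYN, a Src family kinase, was at 7.89 to 34.8 CPM (median 11.0) against 6.76 to 10.9 (median 8.25), a log2 fold change of 0.77 (SE 0.33, edgeR adjusted p = 0.171), or 0.25 without animal 1022.

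The endotoxin receptor TLR4, the co-stimulator CD86 and the adaptor SLA had log2 fold changes of 1.44 to 1.73. Without animal 1022 these were 0.61 (TLR4), 0.62 (CD86) and 1.27 (SLA). FCGR1A, the high-affinity IgG receptor, was at 1.60 to 6.71 CPM in the border zone against 1.25 to 4.55 in the remote zone. Its log2 fold change was 0.25 (SE 0.38, edgeR adjusted p = 0.726), and -0.04 without animal 1022. FCGR1A overlaps another annotated gene on the opposite strand, and 13 of the 38 matched members overlap some RefSeq gene. Overlaps here are of whole gene spans with introns. Overlap of exons was not computed, so any effect on the counts is not known.

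The 3 subunits of the phagocyte NADPH oxidase, which makes superoxide, had a narrow span of log2 fold changes, from 1.53 to 2.18. CYBB, the catalytic membrane chain, was at 5.21 to 77.7 CPM (median 10.9) in the border zone and 3.85 to 6.15 (median 5.16) in the remote zone, a log2 fold change of 2.12 (SE 0.59, edgeR adjusted p = 0.0686), or 1.09 without animal 1022. NCF1, the cytosolic organizer p47phox, was at 1.31 to 10.7 CPM (median 2.37) against 0.676 to 1.47 (median 0.954), a log2 fold change of 2.18 (SE 0.57, edgeR adjusted p = 0.0582). NCF1 was higher in all 6 animals and had the lowest adjusted p of the members.

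The NCF1 level in animal 3622, at 9.78 CPM, was close to that in animal 1022. With animal 1022 left out its log2 fold change was 1.74 (SE 0.58, edgeR adjusted p = 0.169). NCF4, the subunit p40phox, was at 2.09 to 19.6 CPM (median 6.04) against 1.88 to 4.28 (median 2.34), a log2 fold change of 1.53 (SE 0.49, edgeR adjusted p = 0.0956), or 0.92 without animal 1022. NCF4 overlaps PVALB on the opposite strand. All 3 subunits passed in DESeq2 (8.42% of all genes).

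The chemokine receptors differed from each other in size. CCR1, which binds CCL3 and CCL5, was at 1.12 to 50.8 CPM (median 1.84) in the border zone and 0.802 to 1.19 (median 0.880) in the remote zone. Its log2 fold change was 3.54 (SE 0.94, edgeR adjusted p = 0.0591), or 1.75 without animal 1022, it was higher in all 6 animals, and 5 border zone libraries lay above the remote zone. CX3CR1, the fractalkine receptor of patrolling monocytes and resident cells, was at 0.974 to 8.86 CPM (median 1.87) against 1.28 to 2.42 (median 1.70), a log2 fold change of 0.77 (SE 0.47, edgeR adjusted p = 0.327), or 0.15 without animal 1022. For CX3CR1 only 2 border zone libraries exceeded the remote zone. CCR1 overlaps XCR1 on the same strand.

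Of the remaining macrophage products, AIF1 (IBA1), a calcium-binding marker of macrophages, was at 1.66 to 23.7 CPM (median 5.68) in the border zone and 1.04 to 3.48 (median 2.63) in the remote zone, a log2 fold change of 1.76 (SE 0.59, edgeR adjusted p = 0.106), or 1.10 without animal 1022. F13A1, the A chain of coagulation factor XIII, was at 4.87 to 35.1 CPM (median 8.86) against 3.90 to 6.95 (median 6.11), a log2 fold change of 1.11 (SE 0.42, edgeR adjusted p = 0.135), or 0.48 without animal 1022. ALOX5AP, the helper protein of leukotriene synthesis, was at 0.877 to 8.82 CPM (median 2.67) against 0.624 to 2.14 (median 1.34), a log2 fold change of 1.27 (SE 0.52, edgeR adjusted p = 0.162), or 0.81 without animal 1022. For all 3 genes, 4 border zone libraries lay above the highest remote zone library. AIF1 overlaps LST1 and NCR3 in the annotation.

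Levels per kb of exon compare genes only roughly, since exon lengths were from RefSeq and counts were of Ensembl genes. They were headed in the remote zone by SPI1 at a median of 25.8 CPM per kb, where the part of MYBPC3 was not tested. LAPTM5 (11.07), FOLR2 (10.3), CSF1R (9.21) and FCER1G (9.19) followed. In the border zone SPI1 and LAPTM5 stood at 25.8 and 23.1 CPM per kb, and CSF1R at 17.3 came before FOLR2 at 11.8. Among the members tested, the level per kb was lowest for CD84, at 0.0502 in the remote zone and 0.102 in the border zone.

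The 38 matched members summed to 236 to 2577 CPM in the border zone (median 459) and 221 to 331 CPM in the remote zone (median 259). The sum was 2577 CPM in animal 1022, 624 in 1623, 520 in 3622, 398 in 1323, 261 in 1922 and 236 in 1322. The makeup of that sum also varied between libraries. SPI1 took 12.6% to 20.4% of it in the remote zone and less in 5 of 6 border zone libraries, at 4.10% in animal 1022, 6.84% in 3622, 7.70% in 1623, 8.10% in 1323 and 11.0% in 1922, beside 16.2% in 1322. FOLR2 took 4.84% to 9.55% in the remote zone and less in the border zone of animals 1022 (1.83%), 3622 (3.35%) and 1623 (4.36%). The LCP1 share lay above its remote zone range of 4.37% to 7.01% in animals 1022 (12.1%) and 1623 (10.7%). The CCR1 share, at 0.242% to 0.451% in the remote zone, was 1.97% in animal 1022 and 1.43% in 1623, 0.475% to 0.554% in 1322, 1922 and 1323, and 0.282% in 3622. CSF1R took 11.3% to 17.7% of the sum in the border zone against 12.2% to 17.1%.

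Other genes of the same biology were counted from lists of up to 10 genes. Beside these lists and the marker lists below, 17.0% of all genes were higher at an unadjusted p under 0.05. Past the adjusted threshold and higher were 2.06% of all genes in edgeR, 8.42% in DESeq2 and 11.2% with library totals. Of the lineage growth factors, 2 of 3 tested had a fold change above 0, none passed edgeR's threshold, 1 had an unadjusted p under 0.05 and 1 passed in DESeq2. CSF1 had a log2 fold change of 1.32 (SE 0.43, edgeR adjusted p = 0.0976), and the other CSF1R ligand, IL34, had -0.03 (SE 0.22, edgeR adjusted p = 0.944). Of 8 tested myeloid transcription factors, RUNX1 and CEBPA rose in the border zone. RUNX1, a factor of blood cell formation, was at 3.90 to 65.9 CPM against 1.20 to 2.57 (log2 fold change 3.26, SE 0.62, edgeR adjusted p = 0.0276). CEBPA, a factor of myeloid commitment, was at 3.65 to 48.3 CPM against 2.04 to 3.54 (log2 fold change 2.44, SE 0.51, edgeR adjusted p = 0.0338). Both were higher in all 6 animals. With the animal as a block edgeR's adjusted p was 0.0709 for RUNX1 and 0.0798 for CEBPA, with log2 fold changes of 2.58 and 1.98. Both passed without animal 1022, at smaller log2 fold changes of 2.20 (RUNX1) and 1.61 (CEBPA). Neither passed when animal 1323, 1623, 1922 or 3622 was left out (0.0631 to 0.134), with fold changes of 3.24 to 3.43 and 2.38 to 2.59, nor with no filter (0.0578 and 0.0609). CEBPB was at -0.44 (SE 0.23, edgeR adjusted p = 0.243).

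All 10 immunoreceptor adaptors and kinases had a fold change above 0, with a median of 2.01 (0.90 without animal 1022). All 10 had an unadjusted p under 0.05, and TREM2 was the 1 that passed in edgeR, beside 9 that passed in DESeq2 and 8 with library totals. TREM2, a lipid receptor of macrophages, was at 0.536 to 21.4 CPM in the border zone against 0 to 0.420 in the remote zone (log2 fold change 4.55, SE 1.03, edgeR adjusted p = 0.0395, and 0.0774 with the block). Without animal 1022 its log2 fold change was 2.76 (edgeR adjusted p = 0.102). It did not pass without animal 1323, 1623, 1922 or 3622 either (edgeR adjusted p of 0.0841 to 0.129), at fold changes of 4.53 to 4.97, nor with no filter (0.0866). Its partner TYROBP was at 1.52 (SE 0.57, edgeR adjusted p = 0.134). None of the 4 further NADPH oxidase genes passed in edgeR (3 at an unadjusted p under 0.05, 1 in DESeq2), with a median of 1.11 (0.35 without animal 1022). None of 7 Toll-like receptor partners passed in edgeR (median 1.14, and 0.56 without animal 1022, 6 at an unadjusted p under 0.05, 4 in DESeq2). Nor did any of 3 genes of the monocyte chemokine axis (median 1.80, and 0.998 without animal 1022, 2 at an unadjusted p under 0.05, 2 in DESeq2), where the monocyte attractant CCL2 was at 1.30 (SE 0.71, edgeR adjusted p = 0.267).

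**Figure D5:**
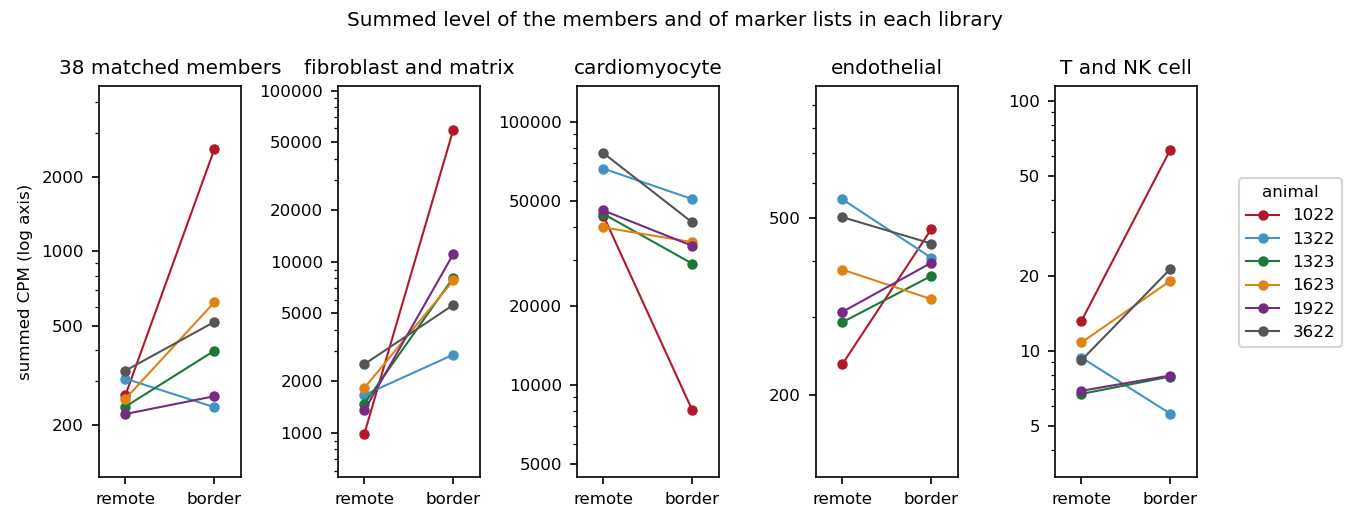
Summed CPM of the 38 matched members and of 4 marker lists in the remote and border zone library of each animal, on log axes with a line per animal. The library of animal 1022 beside the infarct has the highest sum for members (2577 CPM) and for fibroblast and matrix genes (59040 CPM) and the lowest for cardiomyocyte genes (8028 CPM).

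Markers of other cells moved between the libraries as well. Of 7 tested fibroblast and matrix genes, 6 rose in the border zone (median of the 7 on the log2 scale 2.98, and 1 passed with the block and 0 without animal 1323, 1623, 1922 or 3622, beside 7 in DESeq2), and their sum was 2863 to 59040 CPM there against 988 to 2518 in the remote zone. Of 7 tested cardiomyocyte genes, none had a fold change above 0 and none passed in edgeR (median -0.51, 2 at an unadjusted p under 0.05, 1 in DESeq2), and the sum was 8028 to 51046 CPM against 39869 to 76375. Smooth muscle genes (4 tested, 0 called by edgeR and 3 by DESeq2, 4 at an unadjusted p under 0.05, median 1.71) summed to 281 to 2480 CPM against 112 to 373. In animal 1022 the fibroblast and smooth muscle sums were the highest of all libraries and the cardiomyocyte sum the lowest, beside its high myeloid values. Without animal 1022 the medians were 1.98 for the fibroblast, -0.29 for the cardiomyocyte and 0.80 for the smooth muscle genes. The order of the other animals was the same only in part. The fibroblast sum was second highest in the border zone of animal 1922, at 11076 CPM, where the members summed to 261. Animal 1322 had the lowest border zone sums of members (236 CPM), fibroblast genes (2863) and smooth muscle genes (281). Its cardiomyocyte sum (51046 CPM) was the highest of the border zone. A link between these sums was not tested. Endothelial genes (6 tested, 0 called by edgeR or DESeq2, 0 at an unadjusted p under 0.05, median 0.12, and -0.05 without animal 1022) summed to 329 to 472 CPM against 235 to 552.

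Among blood cells, T and NK cell genes (6 tested, 0 called by edgeR or DESeq2, 2 at an unadjusted p under 0.05, median 0.62) summed to 5.60 to 63.8 CPM in the border zone against 6.72 to 13.1 in the remote zone. In the border zone library of animal 1022, where their sum was highest, NKG7 gave 40.0 CPM of it. Neutrophil genes were scarce, with 1 of 5 matched genes tested and 0 called or at an unadjusted p under 0.05, a sum of 0.50 to 2.14 CPM against 0.954 to 1.94, and MPO at 0 in 6 or more libraries. Mast cell genes (2 tested, 0 called by edgeR, 1 by DESeq2 and 1 at an unadjusted p under 0.05) summed to 9.59 to 32.7 CPM against 6.18 to 11.4. None of 5 B cell genes passed the filter (0.487 to 5.81 CPM against 0.725 to 1.31), and dendritic cell genes (1 tested, 0 called by edgeR or at an unadjusted p under 0.05, 1 by DESeq2) summed to 0.828 to 9.15 CPM against 0.676 to 1.60. The part of these cell types, and of the low mitochondrial share of that library of animal 1022 (5.69%), in the members' values was not tested.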

How the data were processed

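RNA was extracted from flash-frozen tissue and sequenced after poly(A) enrichment in nondirectional paired-end libraries. The authors aligned reads to Sscrofa11.1 with STAR and deposited raw counts of reads per gene from featureCounts for each library. MultiQC and DESeq2 are named in the submitters' processing notes. The options for reads that match several genes were not given in the sources used here, so reads of near-identical or overlapping genes may be split or lost.

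Region and animal were read from the sample titles. A table paired 15623 of 35682 identifiers with a symbol, and CYBB was matched through its RefSeq synonym. The members and all lists were chosen with earlier results of these data known. Counts were fitted with edgeR 4.0.16 (TMM, filterByExpr by region, robust quasi-likelihood test, region as the only term) in R 4.3.3. DESeq2 1.42.0, library totals, other filters, the animal as a block and leaving out animals were alternatives. Standard errors were obtained from each fold change and its F statistic. The labels' numbers name animals, each of which gave both its libraries, and so pair them. As a check, the correlation between an animal's libraries, after removal of the mean of each region, averaged 0.35 over genes (over 0.1 in 4 of 6 animals), where genes are not independent replicates. No 2 libraries agreed within counting noise. Values are given in full for the 2 members of each role with the highest mean CPM, the 2 with the largest absolute fold change, and any past the threshold. FCGR1A, MARCO and TIMD4, outside this rule, were described in addition after their values were seen. Genes that are no members come from lists of at most 10. Scripts were tested on simulated data. Promoters and exon lengths are from RefSeq on Sscrofa11.1. Windows of sequence were read from that genome in Python 3.11.15 with pysam 0.24.0. Some items of the lists are not reported here.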

Additional observations from a re-analysis of the deposited data

Results flagged for a closer look

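Of 74 groups of 6 libraries (36 members and their sum in each region), a library was set apart from the other 5 in 4, by the gap to its neighbour over the group's range. Chance alone sets apart about 1 in 20 groups. In the border zone the library of animal 1022 was the highest for CSF1R (log2 CPM 8.69, next 6.14), for FCER1G (5.77, next 3.44) and for LYN (5.13, next 3.62). For CD53 it was the remote zone library of animal 1922, the lowest of the 6 (log2 CPM 1.31, next 2.30).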

How the results depend on the processing

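The count of members past the threshold was 0 with edgeR and remained 0 under DESeq2's size factors, the lack of a filter, a minimum of 10 counts per library, removal of mitochondrial genes, the replicate block, and with the border zone library of animal 1022 or of 3622 left out. It was 21 with library totals, 19 with DESeq2, 1 with the replicate block without animal 1022 (chosen after seeing the data), and 0 to 1 with each animal left out, the 1 being NCF1 without animal 1322. The members' median log2 fold change was 0.73 without the border zone library of animal 1022 and 0.79 to 1.84 with each animal left out.

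Over all genes, 287 were called (285 higher, 2 lower). The count was 1551 with library totals, 1719 with DESeq2 (1412 higher, 307 lower), 139 with no filter, 149 with a minimum of 10 counts per library, 41 with the replicate block, 856 with that block without animal 1022 (569 higher, 287 lower), 156 without the border zone library of 3622 and 0 to 519 over the fits that left out an animal (163, 519, 3 and 15 for 1022, 1322, 1323 and 1922). Without 1623 or without 3622 edgeR called 0 genes, and 2662 and 2448 were under an unadjusted 0.05. Genes of the other lists past the threshold numbered 9, and 33 with library totals, 33 with DESeq2, 3 with no filter, 1 with the replicate block, 19 with that block without 1022, and 0 to 11 with each animal left out. The cause was not tested.

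Of 571 single-member values, 524 kept direction and side of the threshold, 42 passed it, and 5 changed sign. SPI1 was at -0.25 without animal 1022, -0.20 without its border zone library and -0.23 with the block without it. FCGR1A was at -0.04 and -0.13 under the first and second of these. With each animal left out, SPI1 ran from -0.25 to 0.40, FCGR1A from -0.04 to 0.50 and the mean within-animal difference of MARCO on the log2(CPM + 0.1) scale, 0.05 over all 6 animals, from -0.0145 to 0.0747, where that of TIMD4 ran from 0.24 to 0.94. With no filter and with DESeq2 the median of all genes moved to 0.75 and 0.35. The low counts of MARCO and TIMD4 left them out of the filtered fits.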
